A study of Homo sapiens with 2 samples.

Results

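The proteasome genes comprised 44 genes, of 18638 with a probe on a pair of one-colour arrays (49 of 24459 gene probes). They were chosen by gene symbol (PSMA to PSMG followed by a number, though not every such gene was analysed here). They were picked with earlier results of these data known, though the rule used no measured value. They fell into 5 immunoproteasome genes (PSMB8, PSMB9, PSMB10, PSME1 and PSME2), 15 genes of the constitutive core (PSMA genes and PSMB1 to PSMB7), 5 PSMC genes, 12 PSMD genes and 7 other genes. The study set SW620 cells, an established line of human colon carcinoma, made to express the circular RNA CDR1AS against SW620 cells that carried control lentiviruses. Each group was 1 array, and both cultures were kept in DMEM with serum and no further treatment. The sources used here do not say whether the CDR1AS cells were 1 clone or how the control vector was built, and circular CDR1AS itself was not analysed here. With 1 array per group no difference has a replicate error, a test or a p-value, so every ratio below compares these 2 arrays and not the conditions.

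The proteasome degrades proteins marked with ubiquitin. Its barrel-shaped core particle has outer rings of PSMA subunits, which gate the entry, and inner rings of PSMB subunits, of which PSMB5, PSMB6 and PSMB7 cut the substrate. A regulatory particle of PSMC ATPases and PSMD subunits binds the core, recognises ubiquitin, unfolds the substrate and threads it inside. Under interferon, cells build immunoproteasomes, in which PSMB8 takes the place of PSMB5, PSMB9 that of PSMB6 and PSMB10 that of PSMB7, and in which PSME1 and PSME2 form an activator cap. These particles are known for producing peptides that MHC class I molecules present.

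All 44 genes were above background on both arrays, where background is the mean of 384 blank spots plus 2 SD (72.1 on the CDR1AS array and 69.1 on the control array, in units of spot intensity). Spot intensity is the deposited median brightness of a spot, and its median over all probes was 109 on the CDR1AS array and 103 on the control array. Ratios were taken after normalization of both arrays and are given as log2 of CDR1AS over control, where 1 is 2-fold higher. Of the 44 genes, 40 lay in the brightest 25% of the 16685 genes above background on at least 1 array, and that bright set of 4172 genes is given as a second background. Positive-control spots, 24 of each kind on an array, had SDs between 0.10 and 0.24 (log2), and the ratios of spots at the same position had SDs of 0.09 and 0.19, a technical spread only. Where a gene had exactly 2 bright probes (675 genes), the ratios of its probes differed by a median of 0.13 and by 0.35 at the 90th percentile. The mean level of a probe cannot be set against that of another probe, so the level of a gene is compared only between arrays. Brightness ranks and summed intensities below describe the probes and not the amounts of RNA.

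The 5 immunoproteasome genes were lower on the CDR1AS array, while most core, PSMC and PSMD genes lay close to 0 or slightly above it. The log2 ratio of the immunoproteasome genes had a median of −0.53 and ran from −0.95 (PSMB10) to −0.36 (PSME2), and 5 of 5 were below 0. Over all genes measured 52.7% were below 0, with a median of −0.0073, and among the brightest 25% of genes 50.4% were, with a median of −0.0028. No proteasome gene reached 2-fold in either direction, a threshold passed upward by 0.755% and downward by 0.575% of all genes (1.53% and 1.08% of the brightest 25%). At 1.5-fold, 1 of the 44 was lower (PSMB10), against 2.23% of all genes and 4.6% of the brightest 25%, and 1 was higher (PSMD12), against 2.62% and 5.32%. The shares at 1.5-fold are thus close to the background.

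**Figure D1:**
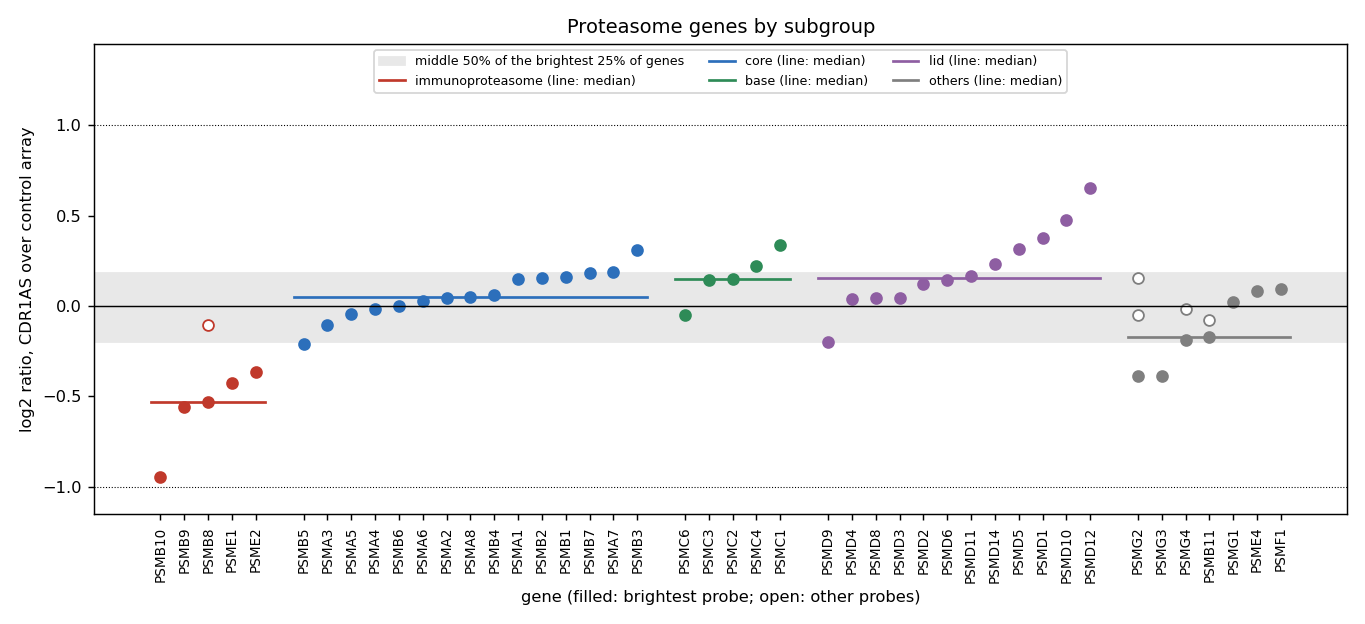
Log2 ratio (CDR1AS over control array) of each of the 44 proteasome genes, in order within their subgroup. Filled points are the brightest probe of a gene, open points its other probes, coloured lines the subgroup medians, dotted lines 2-fold and the grey band the middle 50% of the brightest 25% of genes (−0.20 to 0.18). The 5 immunoproteasome genes sit below the band, from −0.95 to −0.36, apart from the other probe of PSMB8 at −0.11, and PSMD12 is the highest gene at 0.65.

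PSMB10, the trypsin-like catalytic subunit of the immunoproteasome, had spots of 502 on the CDR1AS array and 878 on the control array. It was 1.93-fold lower (log2 ratio −0.95), and 0.695% of all genes and 1.27% of the brightest 25% had a lower ratio. In the deposited value table, which holds the authors' background-subtracted and scaled intensity, PSMB10 had 198 on the CDR1AS array and 387 on the control array. PSMB10 was the lowest of the 44 genes. PSMB9, the immunosubunit in the position of the caspase-like PSMB6, had spots of 1467 on the CDR1AS array and 2013 on the control array and was 1.48-fold lower (−0.56). Of the brightest 25% of genes, 4.84% had a lower ratio than PSMB9. PSMB8, the chymotrypsin-like immunosubunit, had spots of 995 on the CDR1AS array and 1323 on the control array by its brightest probe and was 1.44-fold lower (−0.53). Its other probe, with 405 on the CDR1AS array and 402 on the control array, gave −0.11. The PSMB8 probes thus differed by 0.42, more than the 90th percentile of bright probe pairs, and the transcripts that each detects are not known here.

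The activator subunits were lower too, by less than the brightest probes of the catalytic immunosubunits but by more than the other PSMB8 probe (−0.11). PSME1 had spots of 1098 on the CDR1AS array and 1370.0 on the control array (log2 ratio −0.43, 1.34-fold lower). PSME2 had 4154 on the CDR1AS array and 4868 on the control array (−0.36, 1.29-fold lower). Of the brightest 25% of genes, 8.80% had a lower ratio than PSME1 and 11.6% a lower one than PSME2. The probe of PSME2P2, a pseudogene copy of PSME2, gave −0.26, and whether the probes of the gene and its copy share a transcript is not known here.

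By the brightest probes, each catalytic immunosubunit had a lower ratio than the constitutive subunit whose place it takes. The difference in log2 ratio was −1.13 for PSMB10 minus PSMB7, whose spots were 3149 on the CDR1AS array and 2609 on the control array (ratio 0.18). It was −0.56 for PSMB9 minus PSMB6 (8304 on the CDR1AS array and 7879 on the control array, ratio 0.00). For PSMB8 minus PSMB5 (2514 for CDR1AS and 2744 for control, ratio −0.21) it was −0.32, but 0.10 by the other PSMB8 probe, so the direction of that difference turned with the probe. PSMB5 was the only one of the 3 constitutive catalytic subunits below 0.

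**Figure D2:**
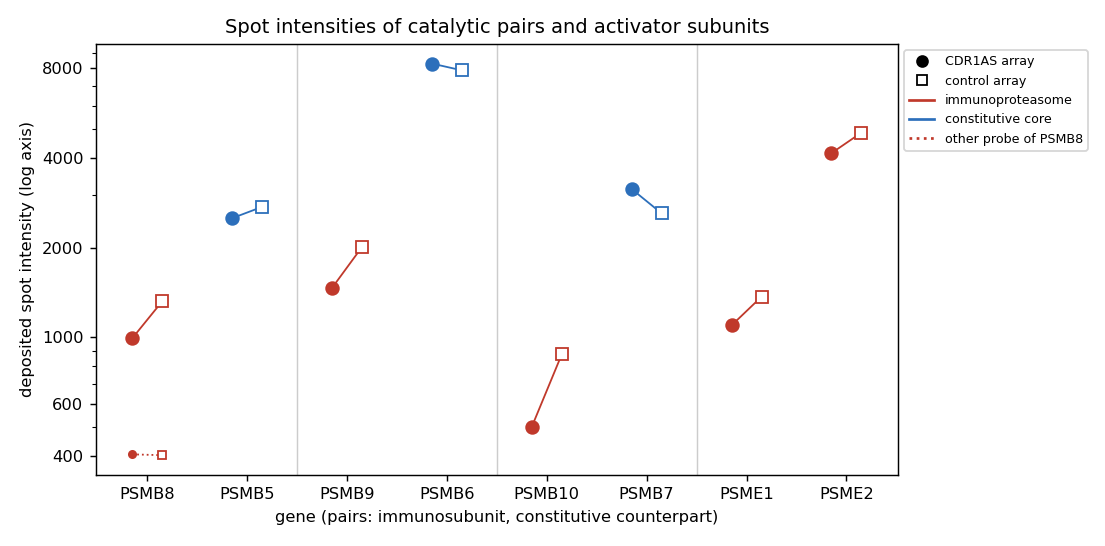
Deposited spot intensity (log axis) on the CDR1AS array (filled circles, left) and on the control array (open squares, right) for the 3 immunosubunits beside their constitutive counterparts and for PSME1 and PSME2. Lines join the same probe. Each red line of a brightest probe climbs from the CDR1AS to the control array, the dotted line of the other PSMB8 probe is flat (405 for CDR1AS and 402 for control), and levels of different probes are not comparable.

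The promoters of the immunoproteasome genes are shown because 4 of these 5 genes hold the same letters close to their start. The windows below cover 250 bases before to 50 after a start site in RefSeq (GRCh38.p14), 5′ to 3′ on the strand of the gene. Capitals mark matches of GAAANNGAA, the core of the interferon-stimulated response element to which IRF factors are known to bind, read on both strands.
PSMB8, chr6:32843998-32844297, minus strand: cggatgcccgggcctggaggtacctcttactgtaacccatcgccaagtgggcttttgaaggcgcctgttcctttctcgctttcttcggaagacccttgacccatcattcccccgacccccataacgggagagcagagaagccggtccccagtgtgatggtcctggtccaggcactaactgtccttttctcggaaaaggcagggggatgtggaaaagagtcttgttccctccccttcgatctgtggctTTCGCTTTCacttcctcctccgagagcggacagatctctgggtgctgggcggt
PSMB10, chr16:67936801-67937100, minus strand: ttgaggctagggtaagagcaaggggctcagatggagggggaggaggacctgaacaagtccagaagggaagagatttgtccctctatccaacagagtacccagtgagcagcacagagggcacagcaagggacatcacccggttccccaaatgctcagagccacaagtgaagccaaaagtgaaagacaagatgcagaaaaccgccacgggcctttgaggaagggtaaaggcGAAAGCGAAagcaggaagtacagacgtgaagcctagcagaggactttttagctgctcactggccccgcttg
PSME1, chr14:24135944-24136243, plus strand: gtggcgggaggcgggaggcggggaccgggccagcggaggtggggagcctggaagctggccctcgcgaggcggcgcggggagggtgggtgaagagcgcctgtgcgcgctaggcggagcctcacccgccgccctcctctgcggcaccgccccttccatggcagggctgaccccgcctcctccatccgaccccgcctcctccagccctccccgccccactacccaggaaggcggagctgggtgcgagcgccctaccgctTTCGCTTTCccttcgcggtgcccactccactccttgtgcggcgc
PSME2, chr14:24146561-24146860, minus strand: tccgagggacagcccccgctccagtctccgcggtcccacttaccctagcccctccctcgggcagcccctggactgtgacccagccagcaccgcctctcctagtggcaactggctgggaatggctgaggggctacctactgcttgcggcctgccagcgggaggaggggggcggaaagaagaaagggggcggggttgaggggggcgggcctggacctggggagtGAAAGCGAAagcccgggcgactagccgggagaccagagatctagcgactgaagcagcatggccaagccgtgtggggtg
PSMB9, chr6:32853942-32854241, plus strand: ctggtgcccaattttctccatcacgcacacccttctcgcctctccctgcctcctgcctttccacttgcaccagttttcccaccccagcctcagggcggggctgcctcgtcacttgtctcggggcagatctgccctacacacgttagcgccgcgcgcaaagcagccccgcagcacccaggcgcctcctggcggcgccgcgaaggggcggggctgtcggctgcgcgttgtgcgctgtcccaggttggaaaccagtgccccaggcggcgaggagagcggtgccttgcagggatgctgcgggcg

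Every match in these windows reads GAAAGCGAA on one strand or the other (TTCGCTTTC as printed for PSMB8 and PSME1). Counted from the start site as 0, the first base of the match lies at −28 in PSME2, at −21 in PSMB10, at −3 in PSMB8 and at 6 in PSME1. The window of PSMB9 holds no match, and neither does the other RefSeq window of PSMB8. Over the 27305 genes with a window, 9.86% hold GAAANNGAA in at least 1 of them. Windows were matched for 38 of the 44 members, and outside the immunoproteasome genes the motif is present in 2 of 11 core genes (PSMA4 and PSMB4), 1 of 5 PSMC genes (PSMC2), 0 of 11 PSMD genes and 1 of 6 other genes (PSMG4). The spelling GAAAGCGAA, singled out after these matches were seen, is present in 0.33% of all genes and in 5 members, of which PSMG4 is the fifth. By the brightest probes, the holders outside the immunoproteasome genes gave log2 ratios of 0.15 (PSMC2), 0.06 (PSMB4), −0.02 (PSMA4) and −0.19 (PSMG4). PSMB9, without a match, gave −0.56. A match is a description of the sequence and says nothing about binding in these cells. Whether GAAANNGAA had a part in any of these ratios was not tested. PSMA7, PSMB1, PSMB6, PSMB7, PSMD4 and PSMG3 had no entry.

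The measured neighbours of the immunoproteasome genes lay on both sides of 0. PSMB8 and PSMB9 lie in the MHC region of chromosome 6, with TAP1, a subunit of the peptide transporter, between them. TAP1 had spots of 424 on the CDR1AS array and 520.4 on the control array (log2 ratio −0.42), TAP2, which encodes its partner, gave −0.27 and PSMB8-AS1 −0.19. On the far side of PSMB9 the ratio was 0.03 for HLA-DMB and 0.42 for HLA-DMA. PSME1 and PSME2 lie close together on chromosome 14, and EMC9 between them gave −0.12. The nearest measured genes outside the pair were below 0 too: DCAF11 (−0.23), FITM1 (−0.19), RNF31 (−0.08) and IRF9 (−0.02). On chromosome 16 the measured genes on either side of PSMB10, CTRL and LCAT, gave −0.08 and 0.11, and SLC12A4, the gene after LCAT, gave 0.41 (359 for CDR1AS and 253 for control).

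The constitutive core differed little between the arrays. Of its 15 genes 10 were above 0 (47.2% of all genes were), 4 below and PSMB6 at 0.00. The core median was 0.05 and the range −0.21 (PSMB5) to 0.31 (PSMB3). PSMB3, a non-catalytic inner ring subunit, had spots of 2518 on the CDR1AS array and 1907 on the control array. The gate-forming PSMA genes ran from −0.11 (PSMA3, 2294 for CDR1AS and 2317 for control) to 0.19 (PSMA7, 7381 for CDR1AS and 6287 for control). PSMA1 (0.15) was next to PSMA7, and PSMA2 (0.04), PSMA6 (0.03), PSMA4 (−0.02) and PSMA5 (−0.04) lay close to 0. PSMA8, the testis form of an outer ring subunit, was near background, with 85.7 on the CDR1AS array and 78.7 on the control array, so its ratio of 0.05 says little. Among the other inner ring subunits PSMB1 and PSMB2 gave 0.16 each and PSMB4 0.06. The probe of PSMB3P2, a pseudogene copy of PSMB3, gave −0.05. PSMB5 (−0.21) and PSMB3 (0.31) are the extremes of 15 genes. Their distance therefore cannot be judged against 0.19, the larger SD of control spot ratios.

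The measured ATPases of the regulatory particle, not its full set, were slightly higher on the CDR1AS array, with a median of 0.15. Of these 5 genes 4 were above 0, against 47.2% of all genes. PSMC1 was highest, with spots of 1803 on the CDR1AS array and 1352 on the control array (log2 ratio 0.34). PSMC4 (0.22), PSMC2 (0.15) and PSMC3 (0.15) followed, and PSMC6 was at −0.05 (1146 for CDR1AS and 1084 for control). PSMC1 lay above 87.6% of the brightest 25% of genes and PSMC4 above 79.1%, and the other 3 were within the middle 50%.

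The highest ratios of the 44, those of PSMD12, PSMD10 and PSMD1, were of PSMD genes. Of 12 PSMD genes 11 were positive and 1 negative, and the median was 0.16. Over all genes 47.2% were above 0, and among the brightest 25% of genes 49.4% were. The group is broader than the lid of the regulatory particle: PSMD1, PSMD2 and PSMD4 are scaffold and ubiquitin-binding subunits outside it, and PSMD5, PSMD9 and PSMD10 are chaperones of base assembly. PSMD12, a lid subunit, had spots of 2958 on the CDR1AS array and 1792 on the control array. It was 1.57-fold higher (0.65), and 4.39% of the brightest 25% of genes had a higher ratio. PSMD12 and PSMB10 were the only members at or past 1.5-fold. Among the other lid subunits, PSMD14, the deubiquitinase that removes ubiquitin chains, had a ratio of 0.23 (2174 on the CDR1AS array and 1733 on the control array). PSMD11 (0.17), PSMD6 (0.14), PSMD3 (0.04) and PSMD8 (0.04) were closer to 0.

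The assembly chaperones of the base differed in direction. PSMD10, also known as gankyrin, had spots of 2813 on the CDR1AS array and 1904 on the control array (log2 ratio 0.47, 1.39-fold higher), and PSMD5 had 402 on the CDR1AS array and 303 on the control array (0.31). PSMD9 was the only PSMD gene below 0, with 778 on the CDR1AS array and 818 on the control array (−0.20). Of the scaffold and receptor subunits, PSMD1 had 2420.1 on the CDR1AS array and 1768 on the control array (0.37), PSMD2 gave 0.12 and the ubiquitin receptor PSMD4 0.04.

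Over the core, PSMC and PSMD genes, 25 of 32 were above 0, against 47.2% of all genes and 49.4% of the brightest 25%. Their median log2 ratio was 0.15. The PSMD12 window is printed with capitals at TGACNNNGC, the core of the antioxidant response element that NFE2L1 and NFE2L2 bind, since NFE2L1 is known as the factor that raises proteasome genes when proteasomes are short.
PSMD12, chr17:67366528-67366827, minus strand: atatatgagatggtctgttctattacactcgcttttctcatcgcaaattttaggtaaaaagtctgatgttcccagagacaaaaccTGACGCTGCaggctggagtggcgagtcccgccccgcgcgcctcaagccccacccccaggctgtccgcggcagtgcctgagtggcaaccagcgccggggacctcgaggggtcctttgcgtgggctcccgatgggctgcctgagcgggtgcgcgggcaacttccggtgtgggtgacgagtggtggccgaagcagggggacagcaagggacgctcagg

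That match begins at −165 from the start site of PSMD12. The motif was present in 5 of 11 PSMD genes (PSMD1, PSMD3, PSMD5, PSMD9 and PSMD12), 2 of 11 core genes, 1 of 5 PSMC genes, 3 of 6 other genes and 3 of 5 immunoproteasome genes (PSMB9, PSME1 and PSME2), against 16.1% of all genes. By the brightest probes, members with TGACNNNGC above 0 were PSMD12, PSMD1, PSMD5, PSMD3, PSMB3, PSMC4, PSME4 and PSMG1. Those below 0 were PSMD9, PSMA4, PSMG2, PSMB9, PSME1 and PSME2. Whether the motif had a part in these ratios was not tested.

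The genes outside these particles had a median of −0.17, with 3 of 7 above 0 (47.2% of all genes were). Assembly of the core rings is guided by the chaperones PSMG1 to PSMG4. PSMG3 had spots of 663 on the CDR1AS array and 792 on the control array (log2 ratio −0.39). PSMG2 had 1267 on the CDR1AS array and 1564 on the control array by its brightest probe (−0.39), but its other probes gave −0.05 (1309 for CDR1AS and 1261 for control) and 0.15 (120.2 for CDR1AS and 103 for control). The lower ratio of PSMG2 thus rests on 1 of 3 probes. PSMG4 gave −0.19 and −0.02 by its probes, and PSMG1 0.02. The alternative activator PSME4, with 212 on the CDR1AS array and 188 on the control array, gave 0.08. PSMF1, which binds the core and can inhibit it, was dim (98.4 for CDR1AS and 87.9 for control, ratio 0.09), as was PSMB11, the thymus form of PSMB5 (97.5 for CDR1AS and 102 for control, ratio −0.17, other probe −0.08).

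Regulators and partners of the proteasome were split between both directions. Of a list of 34 genes for assembly factors, ubiquitin receptors, deubiquitinases and transcription factors, chosen with earlier results known, 30 were measured. Their median was 0.05, 20 were above 0 (47.2% of all genes were) and 10 below, and 1 was past 1.5-fold (2.62% of all genes were higher by as much). That gene was PAAF1, a protein that binds the PSMC ATPases and restrains proteasome assembly, with spots of 733 on the CDR1AS array and 356 on the control array (log2 ratio 0.95, 1.93-fold higher). TRIP12, a ubiquitin ligase, followed at 0.55 (618 for CDR1AS and 394 for control). The lowest were TMUB1 (−0.27, 144 on the CDR1AS array and 159.8 on the control array) and POMP (−0.22, 1909 for CDR1AS and 2086 for control), the maturation factor that delivers the inner ring subunits. NFE2L2 gave 0.36, and NFE2L1 gave 0.19 with −0.06 for its other probe.

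Interferon regulators and partners in class I presentation were mostly below 0. Of 33 genes 27 were measured, with 21 below 0 (52.7% of all genes were), 6 above and a median of −0.14. At or past 1.5-fold, 3 were lower and 0 higher, against 2.23% and 2.62% of all genes. The list was chosen with earlier results of these data known, so these shares describe it and are not a test. Of the 27 genes 13 were brighter than 2 times the background limit on both arrays. UBD, a ubiquitin-like protein that marks substrates for the proteasome and is induced by interferon and TNF, had spots of 208 on the CDR1AS array and 2657 on the control array (log2 ratio −3.86). UBE2L6, the conjugating enzyme of the ubiquitin-like ISG15, had 857 on the CDR1AS array and 1256 on the control array (−0.67). TAPBPL, a relative of tapasin, had 141 on the CDR1AS array, under 2 times its background limit, and 199.7 on the control array (−0.65). The transcription factor IRF1 gave −0.24 (505 for CDR1AS and 545 for control) and ISG15 −0.33. B2M gave −0.25 after normalization, although its spots were nearly equal (25835.6 for CDR1AS and 25808.5 for control). The highest of the list were IFNGR1, a chain of the interferon-gamma receptor, at 0.20 and NLRC5, the class I transactivator, at 0.10, the NLRC5 probe being dim with 103 on the CDR1AS array and 91.6 on the control array. As in the plot of these lists, UBD stood far below the rest.

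**Figure D3:**
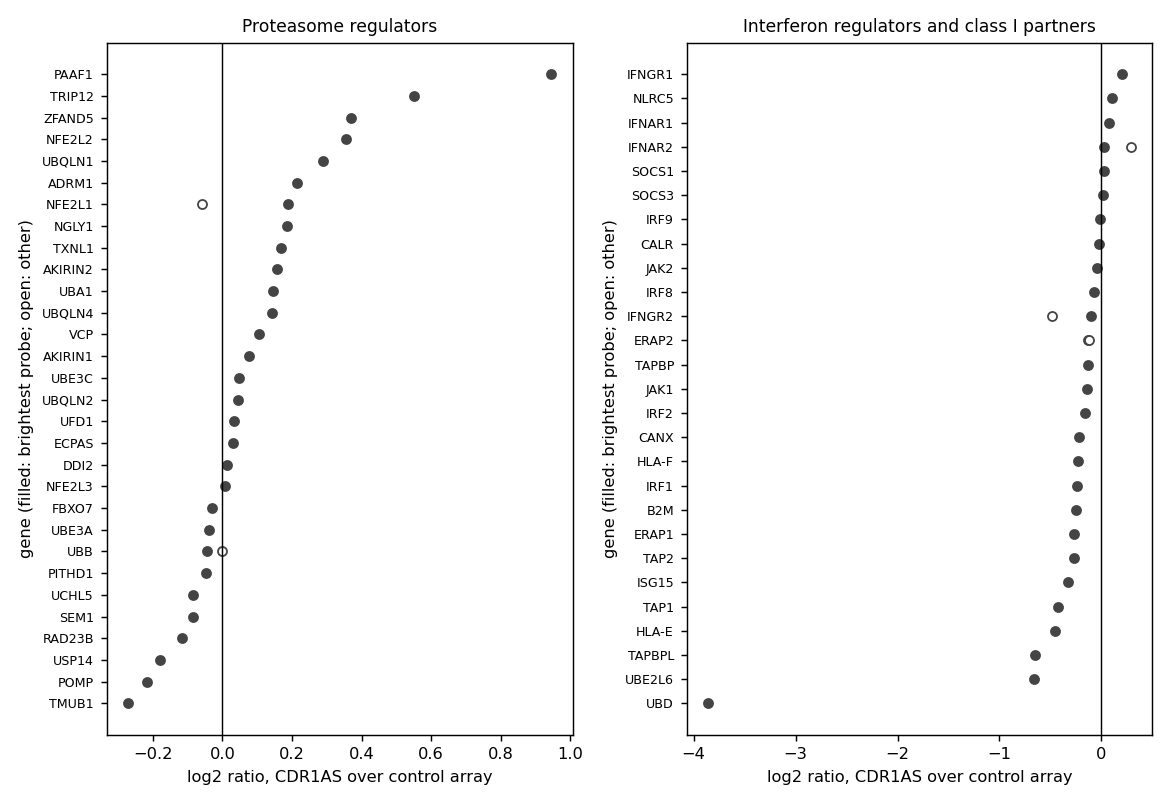
Log2 ratio (CDR1AS over control array) of the measured genes of both further lists, in order. Filled points are the brightest probe and open points other probes, and the horizontal scales differ between the panels. PAAF1 is highest on the left at 0.95, and UBD is lowest on the right at −3.86, followed by UBE2L6 at −0.67.

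Leukocytes are known to hold immunoproteasomes, so markers of other cell types were measured beside these genes. Of 15 leukocyte markers 10 were measured, and their summed spot intensity was 1286 on the CDR1AS array and 1165 on the control array, with a median log2 ratio of −0.02. PTPRC, CD3D and MS4A1 were not above background on either array, and the brightest marker was CD79A (418 for CDR1AS and 331 for control). Of the 10 measured, 2 were brighter than 2 times the background limit on both arrays. Summed intensities in this paragraph include background, where the mean blank spot was 69.5 on the CDR1AS array and 65.9 on the control array. Among colon epithelial markers 13 of 14 were measured, with 4 above 0, 9 below (52.7% of all genes were) and a median of −0.13. Their summed intensity was 69429 on the CDR1AS array and 75391 on the control array. Most of it came from KRT18 (47565 for CDR1AS and 56040 for control, log2 ratio −0.47, other probes −0.05 and −0.10). EPCAM was bright but lower on the CDR1AS array (6334 for CDR1AS and 8538 for control, log2 ratio −0.54). ELF3 (−1.10) and TFF3 (−1.08) were past 2-fold lower, and CDX2 gave −0.82. Above 0 were KRT19 (0.83), VIL1 (0.19), KRT20 (0.09) and CDH1 (0.04). The part of these markers in the immunoproteasome ratios was not tested. Fibroblast markers (5 of 7 measured, summed 743 for CDR1AS and 739.8 for control) and endothelial markers (4 of 5, summed 394 for CDR1AS and 355 for control) were dim on both arrays.

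Subtraction of the local background was the only alternative that moved a subgroup median of the immunoproteasome, core, PSMC or PSMD genes by more than the largest SD of repeated control spots (0.24). In the other 9 of 10 alternatives 5 of 5 immunoproteasome genes stayed below 0, with a subgroup median between −0.55 and −0.43, and the PSMC and PSMD medians stayed above 0 (0.14 to 0.20 and 0.14 to 0.21). After subtraction of the local background column PSME2 was higher (1.80), PSMB8 was lower by more (−1.51) and PSMB10 was near 0 (−0.08). The core median turned to −0.10, and the order of the 5 subgroup medians was the same. That column held 10.2% to 55.1% of the spot intensity of the immunoproteasome genes on the CDR1AS array and 42.9% to 89.2% on the control array. Across all gene probes it followed spot brightness, with Pearson's r on the log scale of 0.942 on the CDR1AS array and 0.977 on the control array (probes are not independent replicates), and for this reason it was not used in the main setting.

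**Figure D4:**
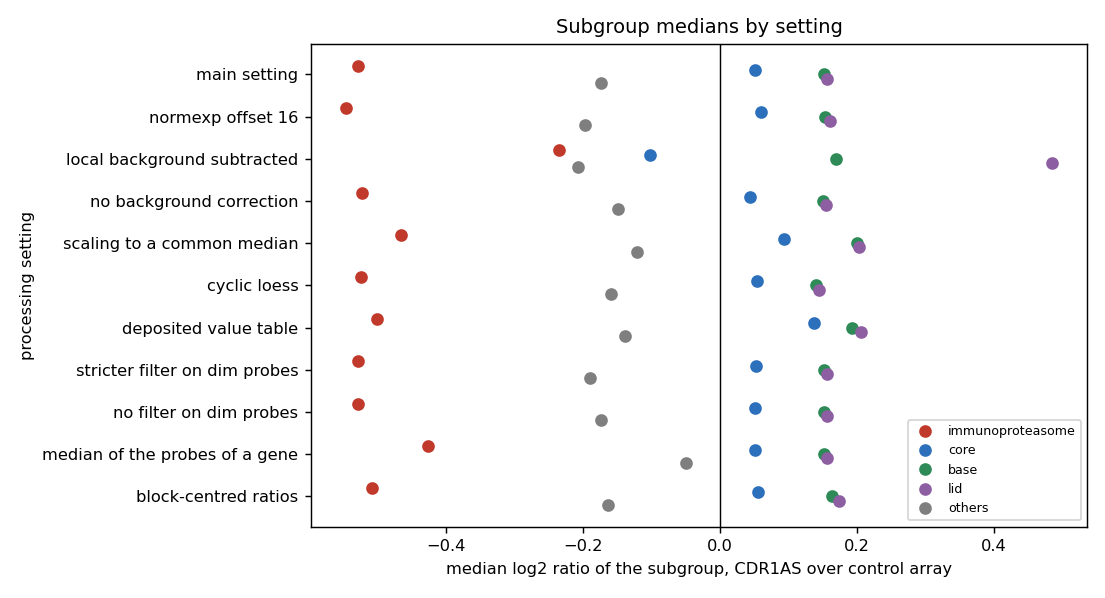
Median log2 ratio (CDR1AS over control array) of each subgroup under the main setting and 10 alternatives; lid stands for all PSMD genes. The immunoproteasome median lies between −0.55 and −0.43 in every setting but subtraction of the local background, where it is −0.23 and the PSMD median 0.48.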

How the data were processed

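Trizol-extracted RNA was amplified as amino allyl RNA and labelled with Cy5, per the labels' protocols. The deposited spot intensity is a median brightness at 635 nm read at 3 scanner gains, per the file headers; the sources used here do not say how the gains were joined. The deposited value table held that intensity minus a constant and times 1 factor per array, with a median of 25 on both arrays (largest residual 0.0559 on the CDR1AS array and 0.0510 on the control array), so scale and direction are known. Blank, control and flagged spots (1 flagged gene probe) were left out. Values were corrected with normexp (offset 50, no local background), quantile normalized and put on log2 with limma 3.58.1 in R 4.3.3, which compresses ratios of dim genes. A gene is its brightest probe, kept where above background on at least 1 array. Genes came from the platform annotation. The steps were tested on simulated data. All members are named; of the further lists, genes past 1.5-fold and the 2 furthest from 0 each way, with others named after their values were seen. Members, lists and motifs were chosen with earlier results of these data known. Precision is limited by the number of arrays. Alternatives covered offset, background, normalization, the deposited table, filters, probe choice and, added after seeing the data, centring on the 24 print blocks.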

Additional observations from a re-analysis of the deposited data

How the results depend on the processing

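With an offset of 16, PSMB10 passed 2-fold, so that 1 member was at least 2-fold lower against 0 in the main setting. Subtraction of the local background moved 8 of 13 results: the immunoproteasome median was −0.23 and the PSMD median 0.48. In that setting 11 members were at least 1.5-fold higher and 8 at least 1.5-fold lower, against 1403 and 1431 of 16685 genes. At least 2-fold higher were 9 members and at least 2-fold lower 3, and the share of all genes past 2-fold in that setting is not given here. The gap of PSMB8 to PSMB5 was then −0.62 and that of PSMB10 to PSMB7 −0.66, and 14 of 44 members changed sign. The other 8 settings moved none of the 13 subgroup medians, counts and gaps by more than the SD of repeated control spots (counts by more than 1.5 times). The gap of PSMB8 to PSMB5 nevertheless ranged from −0.33 to −0.11 outside local background subtraction, smallest when the probes of a gene were summarised by their median, where PSMG2 was at −0.05. Of 16685 genes, 437 were at least 1.5-fold higher and 372 lower in the main setting, 680 and 549 with an offset of 16 and 1403 and 1431 after local background subtraction. In the deposited value table, which held 16250 of the measured genes, 1428 were higher and 1026 lower. The cause of these changes was not tested. No paired analysis was possible because each group was 1 array. The ratios of PSMA8, PSMB11 and PSMF1, which the stricter filter removed, are limited by signal close to background.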

Other observations

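Of 5 promoter motifs searched on both strands, the other 3 were as follows, with no test. TTCNNNGAA was present in 1 of 5 immunoproteasome genes (PSMB8), 3 of 11 core genes, 1 of 5 PSMC genes, 2 of 11 PSMD genes and 0 of 6 other genes, against 9.38% of all genes. GGGCGG, the GC box, was present in 4 of 5 immunoproteasome genes (all but PSMB10) and in 7 of 11 core, 4 of 5 PSMC and 6 of 11 PSMD genes, against 48.3% of all genes. CCAAT was present in 1 of 5 immunoproteasome genes (PSMB9), 7 of 11 core genes and 5 of 11 PSMD genes, against 39.7% of all genes. On the genome, 8 of the 44 members lie on chromosome 14 (PSME1, PSME2, PSMA3, PSMA6, PSMB5, PSMC1, PSMC6 and PSMB11), and their log2 ratios ran from −0.43 to 0.34.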
